A study of Mus musculus with 4 samples.

Results

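The genes described are Col2a1, Col9a1, Col9a2, Col9a3, Col11a1, Col11a2 and Col27a1, which encode the chains of cartilage collagens II, IX and XI and, for Col27a1, of collagen XXVII. They were taken by symbol as 7 rows of a count matrix of 31053 genes. They are followed along the chondrocyte stages of the growth plate and into osteoblast-lineage, stromal, vascular and blood cells of the same library. The cells came from the proximal and distal tibia of a single male mouse at postnatal day 6 (P6), and the 4 entries of the series are sequencing entries of 1 library, counted together. The mouse was a heterozygous control with the genotype Col10a1Cre;Rosa26-Tdtomato;Irx3 +/Δ;Irx5 +/-, with 1 Irx5 allele inactive in every cell, whereas the Irx3 deletion is made by Col10a1Cre and so is limited to cells in which it acts and their descendants. Col10a1Cre acts in hypertrophic chondrocytes (HCs) and turns on the tdTomato reporter in them and in their descendants. Secondary ossification centres were left out at dissection and the tissue was digested with enzymes, so the share of each cell type is that of the suspension. With 1 library there is no replicate, no test and no p-value, and cells are not replicates. The intervals given cover counting error at 95%, and say nothing about differences between mice.

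Collagen II is the main fibril of cartilage and is a homotrimer of the Col2a1 chain. Collagen XI, whose chains come from Col11a1, Col11a2 and a modified Col2a1 product, forms the core on which thin collagen II fibrils assemble. Collagen IX, a heterotrimer of the Col9a1, Col9a2 and Col9a3 chains, sits on the fibril surface and links it to other matrix molecules. Collagen XXVII is another fibril-forming collagen of cartilage. In the growth plate, resting cells feed columns of flat proliferating chondrocytes, which become prehypertrophic and then hypertrophic, when Col10a1 is switched on. Sox9, with Sox5 and Sox6, is the best known activator of the cartilage collagen genes.

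On GRCm38 with the GENCODE M21 annotation, Col2a1 (ENSMUSG00000022483) lies at chr15:97975602-98004695 on the minus strand, and the other members lie on the plus strand. Col9a1 (ENSMUSG00000026147) lies at chr1:24177610-24252684, Col9a2 (ENSMUSG00000028626) at chr4:121039385-121055322 and Col9a3 (ENSMUSG00000027570) at chr2:180597790-180622189. Col11a1 (ENSMUSG00000027966) lies at chr3:114030540-114220718, Col11a2 (ENSMUSG00000024330) at chr17:34039437-34066685 and Col27a1 (ENSMUSG00000045672) at chr4:63214004-63334991. The longest coding transcripts have 32 exons (Col9a2) to 67 exons (Col11a1). Col9a3 overlaps Tcfl5 on the opposite strand, and Col27a1 holds the microRNA gene Mir455. The counts are of 3′ tags, so splice forms such as those of Col2a1 and the alternative starts of Col9a1 were not told apart.

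The RefSeq promoter table for GRCm38.p6 held 6 windows of 5 members, with 2 starts for Col9a1. The 250 bases before the start are shown for Col9a2, Col11a1, Col11a2 and Col27a1, because the levels of these genes part from each other outside cartilage. Capitals mark the motif GGGCGG, bound by SP-family factors, and the core promoter motif TATAAA, on either strand. They run from chr4:121039316-121039565, chr3:114030290-114030539, chr17:34038888-34039137 and chr4:63215162-63215411, all on the plus strand. The RefSeq starts differ from the GENCODE gene starts given above, so the Col27a1 window lies inside its gene and the Col9a2 window overlaps its gene start.
Col9a2: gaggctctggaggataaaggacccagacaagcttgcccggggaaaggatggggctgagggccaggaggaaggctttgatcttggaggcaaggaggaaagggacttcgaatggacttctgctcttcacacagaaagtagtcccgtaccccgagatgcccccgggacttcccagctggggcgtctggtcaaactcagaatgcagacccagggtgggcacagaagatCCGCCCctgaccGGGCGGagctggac
Col11a1: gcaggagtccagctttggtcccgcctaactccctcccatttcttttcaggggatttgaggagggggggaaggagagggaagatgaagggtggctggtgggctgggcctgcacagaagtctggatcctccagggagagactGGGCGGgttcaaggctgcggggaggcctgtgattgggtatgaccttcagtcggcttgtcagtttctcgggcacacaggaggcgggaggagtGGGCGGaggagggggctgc
Col11a2: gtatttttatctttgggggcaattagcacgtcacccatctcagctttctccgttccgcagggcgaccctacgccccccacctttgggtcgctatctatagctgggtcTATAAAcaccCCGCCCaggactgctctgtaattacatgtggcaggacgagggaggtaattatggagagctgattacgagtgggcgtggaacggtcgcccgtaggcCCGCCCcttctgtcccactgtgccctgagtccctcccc
Col27a1: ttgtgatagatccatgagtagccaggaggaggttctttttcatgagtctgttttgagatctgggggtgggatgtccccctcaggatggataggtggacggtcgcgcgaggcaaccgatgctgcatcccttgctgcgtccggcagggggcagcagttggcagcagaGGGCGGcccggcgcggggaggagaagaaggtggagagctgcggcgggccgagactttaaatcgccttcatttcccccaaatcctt
GGGCGG or its complement occurred in 4 of the 6 member windows, in all 4 printed here, and in 32.7% of 32851 mouse promoter windows of the same length. TATAAA occurred in the Col11a2 window, at positions -143 to -138 from the start and 5′ of a GGGCGG match, and in 12.4% of all windows. The SOX-type cores ACAAAG (16.5% of all windows) and ACAATG (10.7%) were searched on both strands and were not found in the 6 windows, which says nothing about sites elsewhere in these genes. The GC content of the 4 printed windows was 57.6% to 62.4%, against a median of 52.4% over all windows. The Col9a1 windows, which are not printed and hold none of these motifs, had 43.6% and 56.0%.

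The matrix held 158281984 UMIs (unique molecular identifiers, each standing for 1 captured transcript) over 14181 barcodes, with 500 to 85279 UMIs per barcode. A total of 8256 cells passed the limits on genes, mitochondrial and ribosomal UMIs. The cells were clustered with the 7 members left out, and clusters were named from marker genes that are not members. The chondrocyte stages were the Ucma-rich stage (351 cells), named for a marker of the resting and upper zone, the columnar stage (544 cells), the Pth1r-rich prehypertrophic stage (681 cells) and the Col10a1-rich stage (101 cells), with 187 cycling chondrocytes beside them. A level is the pooled UMI count of a gene in a class, divided by all UMIs of the class and given as counts per 1000000 (CPM). Because 3′ tags are not scaled by length, levels are compared between classes and not between genes. Median depth was 14572 UMIs per cell in the Ucma-rich stage, 18909.5 in the columnar stage, 27329 in the Pth1r-rich stage and 33055 in the Col10a1-rich stage.

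Col2a1 transcripts were abundant from the Ucma-rich to the Pth1r-rich stage and lower, though still far above background, in the Col10a1-rich stage. The level was 57104 CPM (95% interval 56901 to 57307) in Ucma-rich cells, 42391 (42267 to 42516) in columnar cells, 51996 (51892 to 52099) in Pth1r-rich cells and 10308 (10199 to 10417) in Col10a1-rich cells. Cycling chondrocytes, at 40893 CPM, were close to columnar cells. The highest and lowest of the 4 stages thus stood apart by far more than counting error, and the first 3 stages lay within a narrow band. The 7 members together took 9.46% of all UMIs in Ucma-rich cells, 7.65% in columnar cells, 8.57% in Pth1r-rich cells and 1.74% in Col10a1-rich cells.

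Pooled by stage, the 3 chains of collagen IX had their highest level in Ucma-rich cells and lower levels at each later stage. For Col9a3 the step from columnar to Pth1r-rich cells was not shared by all Pth1r-rich sub-clusters, as given below. Col9a1 went from 7572 CPM in Ucma-rich cells to 6895 in columnar, 6363 in Pth1r-rich and 1380 in Col10a1-rich cells. Col9a2 went from 6137 CPM to 5268, 4420 and 987, and Col9a3 from 9384 CPM to 7931, 7280 and 1414, in the same order. The intervals of neighbouring stages did not overlap for any of the 3 chains. This order holds on the CPM scale, and per cell without scaling the Pth1r-rich cells held the most Col9a1, at 175 UMIs against 132 in columnar and 115 in Ucma-rich cells.

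The collagen XI chains followed another order. Col11a1 was highest in Pth1r-rich cells, at 9421 CPM (9377 to 9465), and close to equal in Ucma-rich cells (8008 CPM) and columnar cells (8068 CPM), whose intervals overlapped. In Col10a1-rich cells it stood at 2181 CPM (2131 to 2231). Col11a2 varied little over the first 3 stages, at 5006, 4745 and 4880 CPM, and was at 1043 CPM in Col10a1-rich cells. Col27a1 was at 1418 CPM in Ucma-rich cells, 1192 in columnar, 1363 in Pth1r-rich and 122 (111 to 135) in Col10a1-rich cells.

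**Figure D1:**
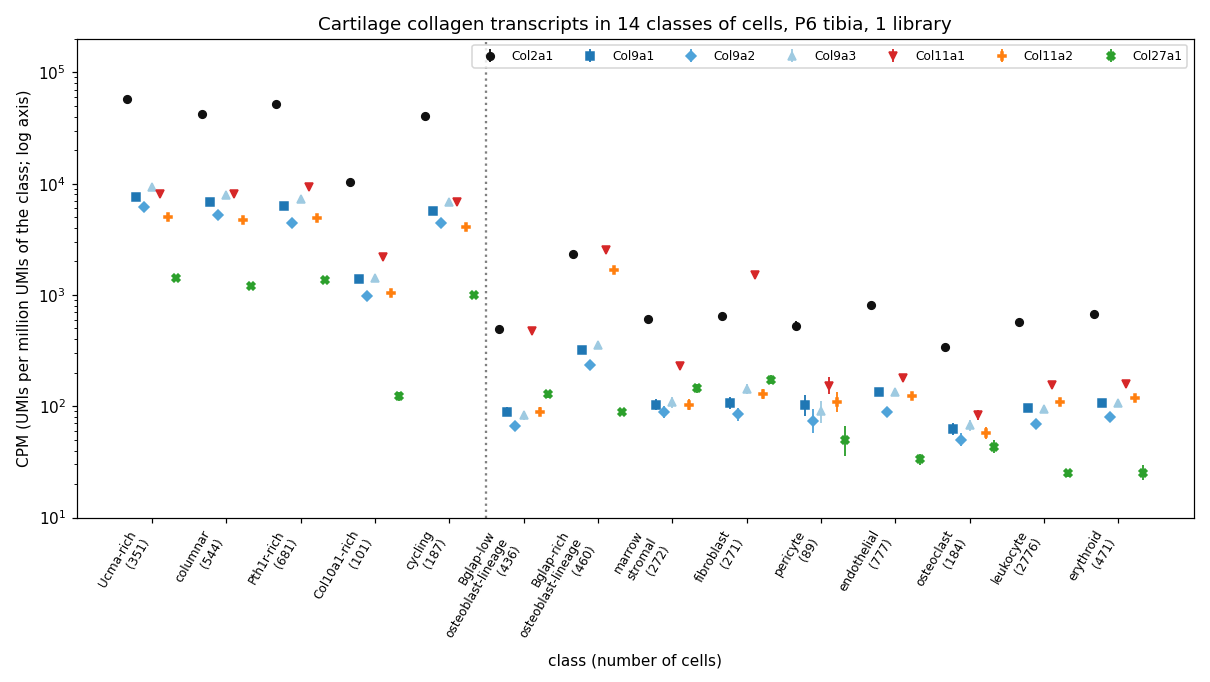
CPM (log axis) of the 7 members in 14 classes of cells, with chondrocytes left of the dotted line, the number of cells in brackets and bars for the 95% counting interval. The members sit together at a high level in the first 3 stages and in cycling cells and lower in Col10a1-rich cells, and among the other classes Col11a1, Col11a2 and Col27a1 stand out in some.

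Relative to columnar cells, none of the 7 members was 2-fold lower in Ucma-rich cells, where 1.52% of 2492 genes with at least 50 CPM in either class were. Col2a1 was 1.35-fold higher (log2 ratio 0.43, 0.42 to 0.44), the 3 collagen IX chains were 1.10-fold (Col9a1) to 1.18-fold (Col9a3) higher and Col11a1 was level at a log2 ratio of -0.01 (-0.03 to 0.01). These are shares of the transcripts of a class. In mean UMIs per cell, only Col2a1 was higher in Ucma-rich than in columnar cells (867 against 815), and the other 6 members were lower, and the former cells held fewer UMIs in all.

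In Pth1r-rich cells again none of the 7 was 2-fold lower than in columnar cells, against 1.54% of 2468 genes. The members split on this scale, though not strictly by collagen type, since Col11a2 was nearly level (0.04, 0.02 to 0.06). Col2a1 (log2 ratio 0.29, 0.29 to 0.30), Col11a1 (0.22, 0.21 to 0.24) and Col27a1 (0.19, 0.16 to 0.22) were higher, while Col9a1 (-0.12), Col9a2 (-0.25) and Col9a3 (-0.12) were lower. The split is one of proportions, since in mean UMIs per cell all 7 members were higher in Pth1r-rich cells. The proportions do not depend on the total, and there were 12.4 Col9a2 UMIs per 100 Col2a1 UMIs in columnar cells and 8.50 in Pth1r-rich cells. For Col11a1 the corresponding values were 19.03 and 18.12, and Col11a1 UMIs per Col9a2 UMI went from 1.31 in Ucma-rich to 1.53 in columnar, 2.13 in Pth1r-rich and 2.21 in Col10a1-rich cells.

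The stages were themselves made of sub-clusters, and the members differed among these as well. Of the 4 Pth1r-rich sub-clusters, the one with the lowest Pth1r level, led by Espn, had the lowest Col2a1 level, at 37508 CPM, with Col9a3 at 5372 CPM and a log2 ratio to columnar cells of -0.56 (-0.58 to -0.54). In it every member was below its columnar level, with Col2a1 at a log2 ratio of -0.18, Col11a1 at -0.03 and Col27a1 at -0.36. The split of signs seen over the whole stage thus did not hold in this sub-cluster. Col9a2 (-0.46) and Col9a3 still had lower ratios than Col2a1 and Col11a1, while Col9a1 (-0.13) lay between Col2a1 and Col11a1. The other 3 Pth1r-rich sub-clusters held 54474 to 58340 CPM of Col2a1. In those led by Arsi and by Ppa1, Col9a3 was above its columnar level, at 8103 and 8293 CPM against 7931. Col9a1 and Col9a2 were below theirs in both, so there the split of signs did not hold for Col9a3. The sub-cluster with the highest Pth1r level, which also held 2407 CPM of Col10a1 and 232 CPM of Ihh (a hedgehog ligand of prehypertrophic cells), had 58066 CPM of Col2a1 and 10113 CPM of Col11a1, the highest Col11a1 level of any sub-cluster. So this sub-cluster, with some Col10a1 in its pooled counts, had a pooled Col2a1 level close to that of the Ucma-rich stage. Whether the same single cells held both transcripts was not tested. The step from this sub-cluster to the Col10a1-rich cells was 5.63-fold for Col2a1, 4.32-fold (Col9a2) to 4.82-fold (Col9a3) for collagen IX, 4.64-fold for Col11a1, 4.98-fold for Col11a2 and 10.3-fold for Col27a1.

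**Figure D2:**
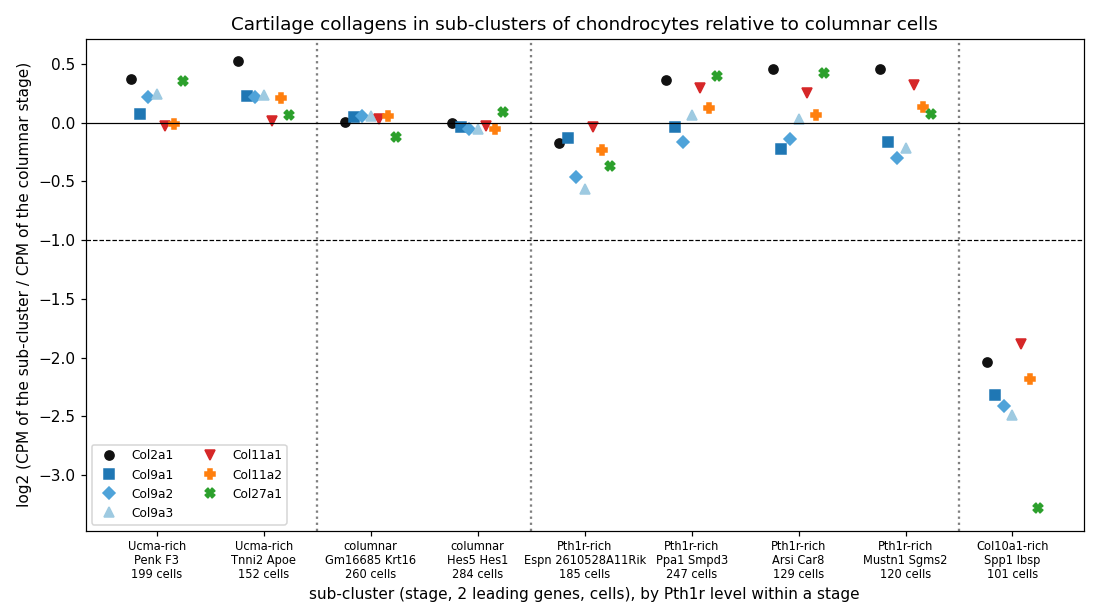
Log2 of the CPM of each member in 9 chondrocyte sub-clusters over its CPM in all columnar cells, ordered by stage and, within a stage, by Pth1r level; the dashed line marks 2-fold lower. The lowest point outside the Col10a1-rich sub-cluster is Col9a3 in the Espn sub-cluster, at -0.56, and in the Col10a1-rich one the members lie between -3.29 and -1.89.

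Among Ucma-rich cells, the sub-cluster led by Tnni2 and Apoe, with more Pthlh (the ligand of Pth1r, 25.45 CPM) and Prg4 (lubricin of the articular surface, 73.9 CPM), had 60963 CPM of Col2a1, and that led by Penk and F3 had 54778. Col27a1 went the other way, at 1245 CPM (1196 to 1294) in the former and 1522 (1481 to 1565) in the latter. The 2 columnar sub-clusters had nearly the same Col2a1 level, 42302 and 42502 CPM. Cycling chondrocytes had 0.82-fold (Col9a1) to 0.96-fold (Col2a1) the CPM of columnar cells for all 7 members, but more UMIs of each per cell.

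In Col10a1-rich cells all 7 members were at least 2-fold lower than in columnar cells, against 8.34% of 3200 genes. The fold was 4.11 for Col2a1, 5.00 for Col9a1, 5.34 for Col9a2, 5.61 for Col9a3, 3.70 for Col11a1, 4.55 for Col11a2 and 9.75 for Col27a1. The median log2 ratio of the 7 was -2.32, whereas the median of all 3200 genes was 0.50. Scaling by median-of-ratios size factors in place of the total, which takes up this shift (0.49), put the members' median at -2.82. Col27a1 thus stood below the rest, with a log2 ratio of -3.29 (-3.43 to -3.14), and there were 1.19 Col27a1 UMIs per 100 Col2a1 UMIs against 2.81 in columnar cells. Col11a1 stood above, at 21.2 UMIs per 100 Col2a1 UMIs. With stages set by UMI gates on single cells, 6 of 7 members passed 2-fold and the median was -1.49, with Col2a1 at -0.97. Without scaling to the total, the median was -1.54 and all 7 passed.

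The Col10a1-rich cells carried 11198 CPM of Col10a1, 16207 of Spp1 and 2813 of Ibsp, both markers shared by late HCs and osteoblasts, and 129 CPM of Col1a1 against 231 in columnar cells. Reporter RNA above 14 WPRE UMIs (a sequence of the reporter transcript) was found in 84 of 101 cells, or 83.2% (exact interval 74.4 to 89.9%). The paper chose this cutoff to fit its own estimate of how many HCs carry tdTomato, and at a saddle point of WPRE counts. The share given here is therefore partly set by the cutoff. Hbb-bs, a globin of red cells, stood at 1058 CPM against 206 in columnar cells, and S100a8, a granulocyte gene, at 130 against 36.9. Their part in the result was not tested. Scrublet marked none of these cells as a doublet.

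Single Col10a1-rich cells differed widely. Col2a1 ranged from 162 to 48838 CPM of the cell, with quartiles of 1459, 5645 and 14094. In 28 of the 101 cells it was at or below 1642 CPM, the 95th percentile of leukocytes, and in 7 it was above 31031, the 10th percentile of columnar cells. Cells with more Col10a1 tended to hold more Col2a1, with a rank correlation of 0.54 over 101 cells of 1 library, a description of cells that share depth and free RNA. For the collagen IX and XI chains it was 0.53 (Col11a1) to 0.62 (Col11a2), and for Col27a1 it was 0.01. The stage is named for its pooled level, so cells without a Col10a1 UMI are also in its ratios to columnar cells. The 34 cells with the least Col10a1, at 0 to 5234 CPM each, had a mean Spp1 level of 48660 CPM over cells and 6438 CPM of Col2a1 (6274 to 6606). The 34 cells with the most Col10a1 had 9463 CPM of Spp1 and 14844 CPM of Col2a1 (14624 to 15066), against 42391 CPM of Col2a1 in columnar cells. Over single cells, however, Col2a1 and Spp1 had a rank correlation of -0.09.

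**Figure D3:**
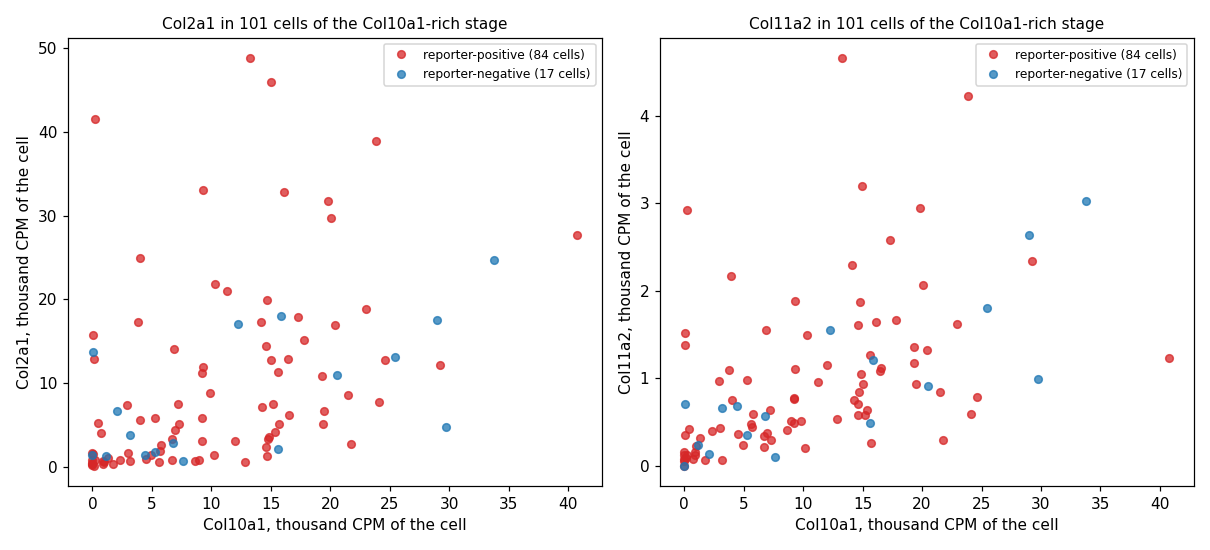
Each of the 101 Col10a1-rich cells by its Col10a1 level and its Col2a1 (left) or Col11a2 (right) level, in CPM of that cell divided by 1000, coloured by reporter. Col2a1 runs from 162 to 48838 CPM, cells with more Col10a1 tend to lie higher, and the 84 reporter-positive and 17 reporter-negative cells overlap.

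Reporter-positive and reporter-negative Col10a1-rich cells differed little when split at 14 WPRE UMIs. Col2a1 was at 10204 CPM (10090 to 10319) in the 84 positive cells and 11239 (10883 to 11604) in the 17 negative cells, and the log2 ratios of the 7 members ran from -0.29 (Col11a2) to 0.03 (Col9a3). The negative cells had a median of 14139 UMIs against 35599, so a low WPRE count and low depth go together in this split. With cells split instead by at least 1 tdTomato UMI (46 against 55 cells), the difference was wider, at 7759 against 13510 CPM of Col2a1, a log2 ratio of -0.80. Only 11 of 681 Pth1r-rich cells were reporter-positive, and none of the Ucma-rich, columnar or cycling cells.

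After thinning each cell to 5000 UMIs, Col2a1 was found in every cell of the first 3 stages that had this depth and in 100 of 101 Col10a1-rich cells. Col27a1 was found in 98.9% of columnar cells (97.6 to 99.6%) and 28.7% of Col10a1-rich cells (20.1 to 38.6%), against 11.6% of leukocytes (10.4 to 13.0%). Unthinned, all columnar cells, 67.3% of Col10a1-rich cells and 22.5% of leukocytes had a Col27a1 UMI. Thinned Col9a2 was found in 85.1% of Col10a1-rich cells, and in 27.9% of leukocytes, which should lack it.

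Cells that are not expected to make cartilage collagens give the level of free RNA. Leukocytes held 568 CPM of Col2a1 (560 to 576) and erythroid cells 670 (650 to 690), and after thinning 85.6% of leukocytes had a Col2a1 UMI. In both classes the members kept similar ratios, though Col11a1 differed beyond counting error. There were 16.95 and 15.94 Col9a1 UMIs, 12.2 and 11.9 Col9a2 UMIs, 16.7 and 16.1 Col9a3 UMIs and 27.2 and 23.4 Col11a1 UMIs per 100 Col2a1 UMIs in leukocytes and erythroid cells. For Col11a1 the intervals were 26.4 to 28.0 and 21.8 to 25.1. Col11a2 was at 19.3 and 17.5, against 11.2 in columnar cells. Leukocytes also held more Col1a1 (602 against 221 CPM) and Bglap (148 against 14.1 CPM) than erythroid cells. The part of osteoblast transcripts in the leukocyte ratios was not tested. The ratios in leukocytes are the measure against which the classes below are read.

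**Figure D4:**
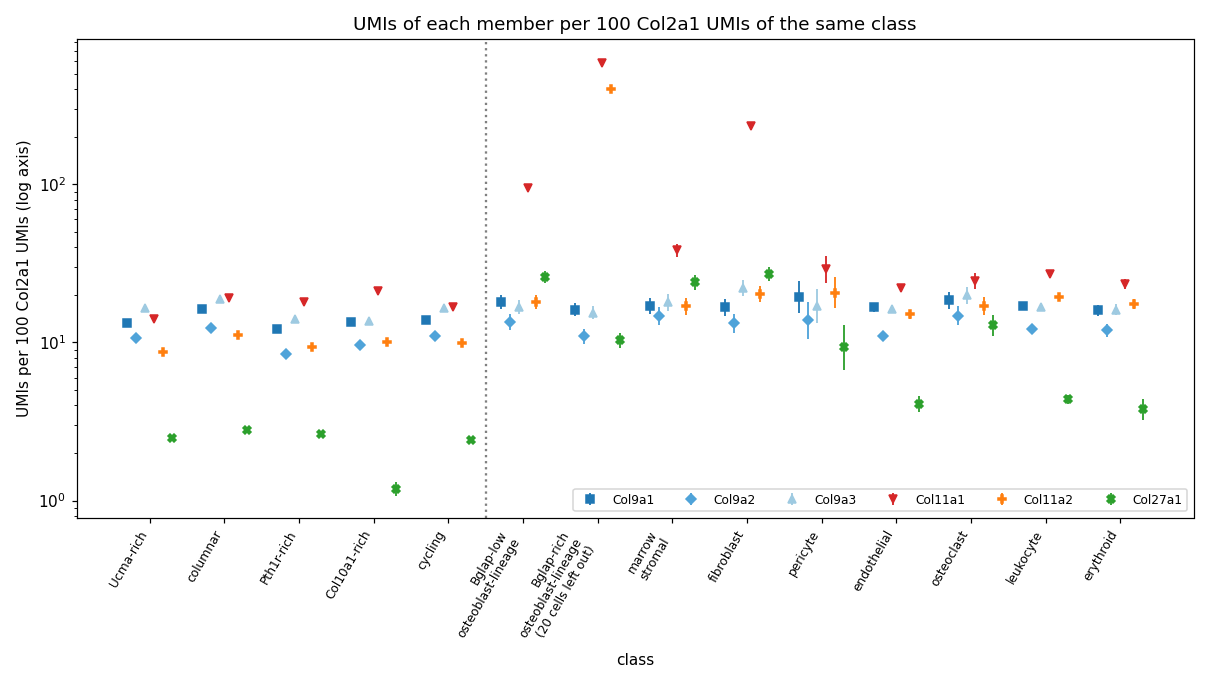
UMIs of each member per 100 Col2a1 UMIs of the same class (log axis, bars for 95% counting intervals), with 20 Bglap-rich cells left out. The 3 collagen IX chains stay between 8.50 and 22.1 in every class, while Col11a1 reaches 585 in Bglap-rich osteoblast-lineage cells and 234 in fibroblasts and Col11a2 reaches 401 in the former.

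Collagen XI transcripts, without those of collagens II and IX, were found in bone-forming cells. Osteoblast-lineage cells were split into a Bglap-low class (436 cells) and a Bglap-rich class (460 cells), Bglap being the osteocalcin gene of mature osteoblasts. Within the Bglap-rich class, 20 cells held over 3000 CPM of Acan, Matn1 and Hapln1 together, all chondrocyte matrix genes, and these 20 cells carried 84.5% of the Col2a1 UMIs of the class but 16.8% of its Col11a1 and 15.0% of its Col11a2 UMIs. Scrublet marked 11 of the 20 as doublets. Without them, Col2a1 stood at 388 CPM (376 to 402), below the 503 CPM of leukocytes treated in the same way. Each collagen IX chain was also below its leukocyte level. These are CPM values of classes that differ in depth, at a median of 18682 UMIs in all Bglap-rich cells and 10937 in leukocytes. In counts, the 440 Bglap-rich cells held 3465 Col2a1 UMIs and the 2769 leukocytes held 17262. Per cell, that is more Col2a1 in the Bglap-rich cells, and each collagen IX chain was also higher per cell in them. Both were thus below leukocytes on the CPM scale only, and the part of depth was not tested. In the same 440 cells Col11a1 stood at 2272 CPM (2241 to 2304), 16.1-fold above leukocytes, and Col11a2 at 1557 CPM (1531 to 1583), 15.5-fold above. Col27a1 was at 40.1 CPM against 23.7.

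With the 20 cells kept, the class held 2320 CPM of Col2a1, and all 7 members were at least 2-fold above leukocytes, where 20.5% of 3500 genes were. Without the 20 cells, Col11a1 and Col11a2 were the members past 2-fold in CPM. The share of all genes past 2-fold was not computed for this comparison, so the number of members has no background beside it. Per 100 Col2a1 UMIs, Col27a1 stood at 10.3 without the 20 cells and at 4.38 in all leukocytes. The median Bglap-rich cell held 331 CPM of Col2a1, 2042 of Col11a1 and 1583 of Col11a2. After thinning, 97.4% of Bglap-rich cells had a Col11a1 UMI and 88.9% a Col11a2 UMI, against 48.0% and 35.6% of leukocytes, at median depths of 18682 and 10937 UMIs before thinning.

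Within the Bglap-rich class, the collagen XI chains were higher in the cells with more Bglap, but they were not limited to cells with Bglap. The class is named for its pooled level, and the 147 cells with the least Bglap (at most 47.7 CPM each and 4.99 CPM pooled) held less of it than the Bglap-low class (447 CPM) and leukocytes (122 CPM). These 147 cells held 38965 CPM of Col1a1 and 11946 of Ibsp, against 5741 and 1069 in the Bglap-low class, and Col11a1 was at 1615 CPM (1570 to 1661) and Col11a2 at 1049 (1013 to 1086). In the 147 cells with the most Bglap (at least 2497 CPM), they were at 3010 (2950 to 3070) and 2153 (2103 to 2205). Col2a1 was at 372 and 402 CPM in the same cells. Over the 440 cells the rank correlation of Col11a1 with Col11a2 was 0.80, a description of cells that share their depth and their scaling.

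**Figure D5:**
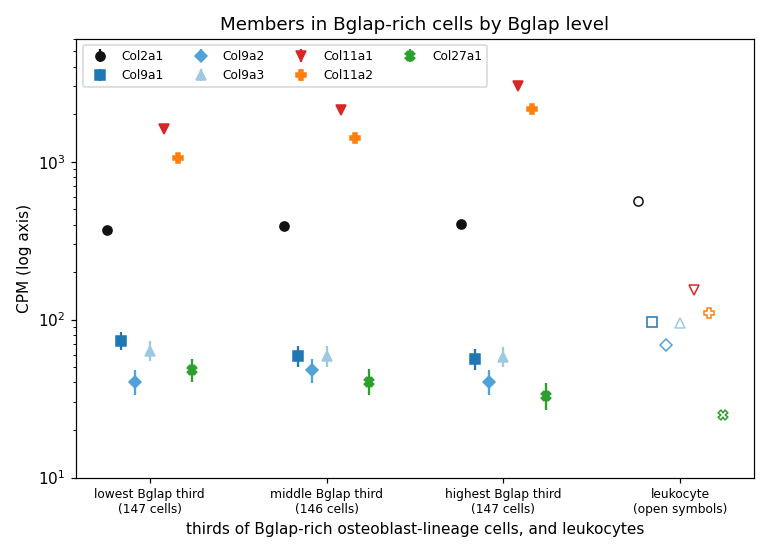
CPM (log axis, bars for 95% counting intervals) of the members in 3 groups of Bglap-rich cells ranked by their Bglap level (147, 146 and 147 cells), without the 20 cells with chondrocyte transcripts, beside leukocytes (open symbols). Col11a1 and Col11a2 are higher in each further group, and Col2a1 and the collagen IX chains lie below the leukocyte values in all 3.

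Bglap-low cells had Col11a1 but no Col11a2 above background. Col11a1 stood at 471 CPM (452 to 489), 3.33-fold above leukocytes, and Col11a2 at 89.3 CPM (81.4 to 97.7) against 101 in leukocytes. The ratio of Col11a1 to Col11a2 UMIs was 5.27 (4.78 to 5.83) in Bglap-low cells and 1.49 (1.46 to 1.52) in Bglap-rich cells, against 1.70 in columnar cells. The Bglap-rich ratio is over all 460 cells of the class. Col11a2 thus separated the 2 classes as clustered. It was not limited to cells with Bglap, since the 147 Bglap-rich cells with hardly any Bglap also held it. Within the Bglap-rich class it was higher with more Bglap, at 1049, 1418 and 2153 CPM in the lowest, middle and highest group.

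Fibroblasts, named for Aspn, also had Col11a1 without Col11a2. Col11a1 was at 1468 CPM (1422 to 1515) and Col11a2 at 131 (117 to 145), which was 10.4-fold and 1.30-fold the leukocyte level, after 8 cells with chondrocyte matrix transcripts were left out. Single fibroblasts ranged from 119 CPM of Col11a1 at the 10th percentile to 3478 at the 90th. Collagens V and XI can share chains, and the collagen V genes Col5a1 (1384 CPM) and Col5a2 (1966 CPM) were measured in the same cells, with 34.7 and 35.9 CPM in columnar cells.

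Col27a1 had a distribution of its own outside cartilage. It was at 172 CPM (156 to 188) in fibroblasts, 146 (132 to 160) in marrow stromal cells and 128 (119 to 138) in Bglap-low cells, or 7.25-fold, 6.15-fold and 5.41-fold the leukocyte level of 23.7 CPM. In Col10a1-rich cells it was at 122 CPM, with an interval that overlapped that of Bglap-low cells. In pericytes it was at 49.6 CPM from 43 UMIs and in osteoclasts at 43.4 CPM, whereas endothelial cells (24.99 CPM) and erythroid cells (18.65 CPM), without cells holding chondrocyte transcripts, were near the leukocyte level or below it. After thinning, 44.7% of marrow stromal cells and 48.3% of fibroblasts had a Col27a1 UMI. Marrow stromal cells, named for Cxcl12, had 232 CPM of Col11a1, 1.64-fold above leukocytes, and Col2a1 at 606 CPM.

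Ordered by level over the 14 classes, Col2a1 was highest in Ucma-rich, then Pth1r-rich, columnar, cycling, Col10a1-rich and Bglap-rich cells. Below these came endothelial cells at 813 CPM and then erythroid cells, fibroblasts (642 CPM) and marrow stromal cells, of which neighbours overlapped in their intervals, leukocytes, pericytes (530 CPM), Bglap-low cells (494 CPM) and osteoclasts (339 CPM). Pericytes overlapped with both leukocytes and Bglap-low cells. The places of Bglap-rich, endothelial and erythroid cells rest on cells with chondrocyte transcripts. Without such cells the order outside cartilage was fibroblasts (639 CPM), marrow stromal cells (606), endothelial cells (548), pericytes (530), erythroid cells (521), leukocytes (503), Bglap-low (494) and Bglap-rich cells (388) and osteoclasts (339). Outside cartilage this order holds on the CPM scale, and the classes differ in depth. With all cells kept, osteoclasts (median 24316.5 UMIs) held 8.52 Col2a1 UMIs per cell, leukocytes (10937) 7.05 and fibroblasts (9053) 6.44. The part of depth was not tested. For Col11a1 the order was Pth1r-rich, columnar, Ucma-rich, cycling, Bglap-rich, Col10a1-rich, fibroblast, Bglap-low and marrow stromal cells, with the remaining 5 classes at 83.0 to 181 CPM. For Col11a2, Bglap-rich cells at 1692 CPM lay above Col10a1-rich cells, and the other 8 non-cartilage classes lay at 57.7 to 130 CPM.

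Taking the whole osteoblast lineage of 896 cells against columnar cells, all 7 members were at least 2-fold lower, against 12.0% of 3017 genes. The log2 ratios were -4.67 (Col2a1), -4.87 (Col9a1), -4.90 (Col9a2) and -4.93 (Col9a3), but -2.17 for Col11a1, -2.08 for Col11a2 and -3.54 for Col27a1. Without the 20 cells with chondrocyte transcripts the values were -6.63 (Col2a1), -6.57 (Col9a1), -6.68 (Col9a2), -6.85 (Col9a3), -2.34 (Col11a1), -2.24 (Col11a2) and -4.03 (Col27a1), so those of collagens II and IX rest mostly on these cells.

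Reporter-positive osteoblast-lineage cells, taken as cells in which Col10a1Cre was or had been active, made up 159 of 460 Bglap-rich and 72 of 436 Bglap-low cells. In Bglap-rich cells without chondrocyte transcripts, Col11a1 was at 1976 CPM (1929 to 2024) in 154 positive and 2454 CPM in 286 negative cells, a log2 ratio of -0.31 (-0.35 to -0.27). Col11a2 was at 1458 and 1617 CPM and Col2a1 at 403 and 380 CPM. In Bglap-low cells Col11a1 was at 374 CPM in positive and 494 in negative cells, but at 457 and 482 CPM, with overlapping intervals, when split at 1 WPRE UMI. The sign of the Col11a1 difference in Bglap-rich cells depended on how the reporter was read, with log2 ratios of 0.11 for at least 1 tdTomato UMI and 0.12 for at least 1 WPRE UMI, so no direction is drawn from it. Col9a1 (0.65, 0.61 and 0.50) and Col27a1 (-0.54, -0.58 and -0.82) kept their sign in every reading, with the whole interval on that side. In the 154 positive and 286 negative Bglap-rich cells the levels were low, at 80.8 and 51.5 CPM of Col9a1 and 31.2 and 45.6 CPM of Col27a1. Leukocytes without cells holding chondrocyte transcripts held 88.2 CPM of Col9a1 and 23.7 CPM of Col27a1. The cause was not tested. The 2 reporter-positive groups held 403 (Bglap-rich) and 449 (Bglap-low) CPM of Col2a1, below the 503 CPM of leukocytes. Their median depths were 18889 and 11610 UMIs, against 10937 in leukocytes. In counts of Col2a1 they held 1366 UMIs in 154 cells and 466 in 72 cells, against 17262 in 2769 leukocytes. Per cell both groups thus held more than leukocytes, and they were lower on the CPM scale only.

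Other genes of the cartilage fibril were read from fixed lists. Of 14 measured partners of the collagen II fibril, 8 were at least 2-fold lower in Col10a1-rich than in columnar cells and none was higher, with a list median of -2.54. Of all 3200 genes, 8.34% were lower by this measure and 27.0% higher. Matn1 and Matn3, matrilins that bridge fibrils, were at log2 ratios of -3.55 and -3.42, and Cnmd (chondromodulin) was at -3.71. Acan, the large proteoglycan of cartilage, stayed closer to its columnar level than the members, at -0.82 (4047 against 7158 CPM), and Comp at -0.69. Chondrocyte clusters were named by at least 1000 CPM of Acan and of Hapln1, so the Acan level in this stage is partly set by that rule. In Pth1r-rich cells Comp was at least 2-fold higher, at 1.22, and Ucma, which had been used to name a stage, was at least 2-fold lower.

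Of 7 measured other fibril-forming or fibril-associated collagens, 5 were at least 2-fold higher in Ucma-rich than in columnar cells (Col1a1, Col1a2, Col3a1, Col5a2 and Col12a1), against 3.61% of 2492 genes. Col1a1, at 506 CPM in Ucma-rich and 231 in columnar cells, was below the 602 CPM of leukocytes in both. Erythroid cells held 221 CPM of Col1a1, endothelial cells 281 and osteoclasts 122, and the Ucma-rich level was above each of these. The part of free RNA in the Col1a1 difference was not tested. In Ucma-rich cells Col1a2 (1258 against 535 CPM) and Col3a1 (300 against 33.4) were above their leukocyte levels, as were Col5a2 and Col12a1. In Col10a1-rich cells Col5a1 and Col5a2 were higher, at 124 and 324 CPM against 34.7 and 35.9, and Col3a1, Col12a1 and Col16a1 were lower. Of 9 measured in the osteoblast lineage, 8 were higher than in columnar cells, against 602 of 3017 genes, and Col16a1 was lower. The 8 include Col1a1, whose level was used to name the osteoblast-lineage classes, and Col1a2, which is on their marker list. The higher level of Col1a1 was thus set by the naming rule, and that of Col1a2 is not independent of it. Col24a1, a fibrillar collagen of bone, was at 77.04 CPM in Bglap-rich cells and 1.15 in columnar cells.

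Of 8 measured regulators, 4 were at least 2-fold lower in Col10a1-rich than in columnar cells, against 8.34% of 3200 genes. Sox9 was at 275 against 1339 CPM (log2 ratio -2.28, -2.38 to -2.19) and Sox5 at 28.5 against 197, while Sox6 was at -0.996 (-1.228 to -0.771), just short of 2-fold. Runx3 and Foxa3 were also lower, and Mef2c was higher, at 294 against 106 CPM. In Bglap-rich cells Sox9 was at 70.5 CPM (65.1 to 76.2) against 18.7 in leukocytes, both without cells holding chondrocyte transcripts, and Runx2 and Sp7, activators of osteoblast genes, were at 148 and 99.4 CPM against 30.2 and 1.31. None of the 8 regulators passed 2-fold in Ucma-rich cells, and Mef2c alone did in Pth1r-rich cells, where it was higher, as 3.44% of 2468 genes were.

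Of 20 measured genes for procollagen folding, secretion and processing, 7 were at least 2-fold lower and 3 higher in Col10a1-rich than in columnar cells, against 8.34% and 27.0% of 3200 genes. Plod2, a lysyl hydroxylase, was at 224 against 1054 CPM, the chaperone Serpinh1 (HSP47) at 914 against 2180 and Creb3l2, an activator of secretory genes in chondrocytes, at 53.6 against 190. Lox, which crosslinks collagen, went the other way, at 578 against 6.98 CPM. In the osteoblast lineage 8 of 21 were lower and 4 higher, against 361 and 602 of 3017 genes, Lox among the latter at 529 CPM, and Serpinh1 was at 2806 CPM. In Ucma-rich cells P4ha2 and P3h2, both prolyl hydroxylases, were the 2 of 19 past 2-fold lower than in columnar cells, against 1.52% of 2492 genes. P4ha2 was at 151 against 382.5 CPM.

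Over the 14 classes, the genes whose log2 levels were most like those of the members were sought among 6131 genes with at least 50 CPM in some class. For Col2a1 they were Mia (r = 0.996), 3110079O15Rik (0.993) and Matn3 (0.992). Mia, Matn1 and Matn3 led for all 3 collagen IX chains, with r from 0.994 to 0.998. For Col11a1 they were Bmp7, Ooep and Pcolce2 (0.97 each), for Col11a2 Cnmd, Mia and Gramd2 (0.97 each) and for Col27a1 Slc35e3 and Efcab1 (0.98 each) and Sox9 (0.97). The classes share 1 library and its free RNA, and these values are descriptions.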

How the data were processed

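The deposited values are raw UMI counts per gene and barcode, made by the authors with Cell Ranger 3.1.0 on mm10 with reporter sequences added, and a second deposited count matrix of 98 exogenous sequences. Per the labels, Seurat 3 was also used; its objects were not used here. Barcodes were kept when they held 1600 genes or more, with mitochondrial UMIs not above 10% and ribosomal UMIs not above 50%. In scanpy 1.11.5 (Python 3.11.15, igraph 0.11.9) counts were scaled to 10000 per cell and logged, 2000 variable genes without the members and 30 components were taken, and cells were clustered with 20 neighbours at resolution 1, with chondrocytes clustered again at 0.8. Clusters were named from marker lists and CPM limits on single genes. Chondrocyte clusters needed at least 1000 CPM of Acan and of Hapln1, and osteoblast-lineage clusters at least 2000 of Col1a1. Chondrocyte sub-clusters were staged by summed CPM, with Col10a1 of at least 5000, then Pth1r of at least 400, then Ucma of at least 2500, and the rest columnar. Sub-clusters with at least 2 markers of other cell types among their 10 leading genes were called mixed (93 cells), and 563 cells stayed unnamed. These limits were set after the clusters were seen, and names may differ from those of the study. The nearest sub-clusters lay at 11198 and 2407 CPM of Col10a1, 545 and 187 of Pth1r and 4144 and 1819 of Ucma.

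Scrublet, at an expected rate of 10%, marked 588 barcodes, 460 of them kept, and these stayed in. Intervals (Poisson, conditional binomial, Clopper-Pearson) are exact at 95% and cover counting error only. Lists were read at 2-fold among genes with at least 50 CPM in either class. The steps were tested on simulated data. Named genes are the 7 members, the 3 genes nearest each by Pearson's r of log2(CPM + 1) over 14 classes, and examples from 4 lists. The members, lists and comparisons were chosen with earlier results of these data known. The P56 sample was not analysed here.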

Additional observations from a re-analysis of the deposited data

Results flagged for a closer look

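Some cells without a class name held cartilage collagen transcripts far above the 568 CPM of Col2a1 in leukocytes, namely 2 of the 7 unnamed clusters and both mixed sub-clusters, while the other 5 unnamed clusters held 240.2 to 535 CPM. The 114 cells led by the granulocyte genes Prg2, Retnlg and Mmp8 held 31983 CPM of Col2a1, and Scrublet marked 91 of them as doublets. The 87 cells led by Tmcc2 and haemoglobin genes held 35452 CPM, with 41 marked. Among the chondrocyte sub-clusters called mixed, the 38 cells led by the B-cell genes Ighm, Vpreb3 and Cd79a held 32737 CPM, with 29 marked, and the 55 cells led by Cxcl12, Col4a1 and Mmp9 held 34972 CPM, with 40 marked. Per 100 Col2a1 UMIs these 4 groups had 15.95 to 17.8 Col11a1 UMIs, against 19.03 in columnar cells and 27.2 in leukocytes. These cells are in no comparison of the report. Of those below the leukocyte level, the 59 cells led by haemoglobin genes, with 18832 CPM of Col1a1, held 396 CPM of Col2a1 but 863 CPM of Col11a1 and 493 CPM of Col11a2, and 13 of them were marked.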

How the results depend on the processing

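In the 13 alternatives run for each stage, the counts of members at least 2-fold lower were 0 in Ucma-rich and Pth1r-rich cells and 7 in Col10a1-rich cells, except 6 with stages by UMI gates, and the osteoblast-lineage count was 7 in each of its 14. The osteoblast-lineage ratios of collagens II and IX, -4.93 to -4.67 in the report, ranged from -6.91 (Col9a3, at most 5% mitochondrial UMIs) to -4.63 (Col2a1, UMI gates). The median log2 ratio of Col10a1-rich over columnar cells, -2.32 in the report, was -2.10 with at most 5% and -2.05 with at most 20% mitochondrial UMIs, -2.07 with at least 2000 genes, -2.20 without Scrublet doublets, -2.17 with 3000 variable genes, -2.12 with members among the variable genes, -1.49 with UMI gates, -2.39 with abundant collagens out of the total, -2.82 with median-of-ratios size factors, -2.46 as a mean over cells and -1.54 unscaled. The unscaled setting and the one without osteoblast-lineage cells that hold chondrocyte transcripts were chosen after seeing the data. Small ratios changed sign unscaled, in Ucma-rich cells for the collagen IX chains, Col11a2 and Col27a1, and in Pth1r-rich cells for the collagen IX chains; Col11a2 in Ucma-rich cells also changed sign with size factors, and Col9a3 in Pth1r-rich cells with UMI gates. Col11a1 in Ucma-rich cells kept its sign in 5 of 13. The causes were not tested.

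No paired analysis was possible because the 4 entries are 1 library of 1 mouse, and no replicate could be left out for the same reason. Depth limits Col27a1 most, at 408 UMIs in Col10a1-rich cells and 43 in pericytes.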

Other observations

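Without cells holding over 3000 CPM of Acan, Matn1 and Hapln1 together, a limit that itself uses Acan, fibroblasts held 674 CPM of Acan (643 to 706), 511 of Comp and 695 of Col14a1, against 81.6, 72.2 and 2.33 CPM in leukocytes. Matn1 was at 34.8 CPM and Matn3 at 49.2 CPM in fibroblasts, against 29.1 and 37.8 CPM. Pericytes held 248 CPM of Acan with Matn1 at 38.1 CPM. Col2a1 was 1.27-fold the leukocyte level in fibroblasts, at 639 against 503 CPM, and was at 530 CPM in pericytes.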
